A study of Mus musculus with 6 samples.

Results

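Blood and lymphatic vessels are lined by endothelial cells, and 33 genes that mark these cells or their activation were followed here in colon tissue, out of 19949 genes with counts. The 33 were taken as a given list: 20 constitutive endothelial genes (junction and surface proteins, receptors, secreted products and transcription factors), 6 genes of leukocyte adhesion and traffic, 3 genes of sprouting endothelium and 4 genes of lymphatic endothelium. The list was chosen with earlier results of these data known, so counts and shares over it are descriptions. All 33 had reads, and 31 had enough for the test between genotypes. Sele and Apln did not. The colons came from BALB/c mice of 6 to 8 weeks that had drunk 3% dextran sulfate sodium (DSS), an agent that injures the colonic epithelium, for 3 days. One group was STAT6-/-, labelled as homozygous for disruption of Stat6, which encodes the transcription factor activated downstream of the receptors for interleukin-4 and interleukin-13, and the other was wild type (WT), so both groups had been given DSS. Each group had 3 RNA libraries of unsorted tissue. Colons without DSS are not analysed here. The labels do not say whether the 3 libraries of a genotype are separate or pooled animals, so p-values measure the spread between these libraries, which may be partly technical. They describe tissue from the proximal part of the intestine, scraped on its luminal side, with no sorting of cells.

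The blood endothelium keeps plasma and cells inside the vessel through junctions of VE-cadherin (Cdh5), claudin-5 and related proteins, and it takes growth signals through VEGF, angiopoietin and TGF-beta family receptors. When inflammatory cytokines such as TNF or interleukin-1 act on it, the endothelium of venules displays selectins, which let leukocytes roll, and ICAM-1 and VCAM-1, which hold them through integrins. In the gut, venules also carry MAdCAM-1, the address for lymphocytes bearing the integrin alpha4beta7. Lymphatic capillaries drain fluid and migrating cells, and are set up by the transcription factor Prox1 and the VEGF-C receptor Flt4.

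Libraries held 17122315 to 19555450 expected counts, the read numbers estimated per transcript and summed per gene. Levels are given as CPM, counts relative to a library's total after scaling between libraries, and a comparison of levels between genes uses FPKM, which accounts for transcript length. Stat6 stood at 47.2 ± 7.74 CPM (SD, n = 3) in STAT6-/- and 94.8 ± 8.11 in WT, a log2 fold change of -1.01 ± 0.16 (SE; edgeR adjusted p = 0.0134; exact two-sided permutation p = 0.1, the smallest that 3 against 3 allows). Stat6 RNA was thus reduced but still present, with 737 to 1070 counts in each STAT6-/- library, and counts over the whole gene do not show which part of it was disrupted. Xist, the RNA of the inactive X chromosome, stood at 0.683 ± 0.376 against 469 ± 103 CPM and the Y-linked Ddx3y at 55.1 ± 4.33 against 0.08 ± 0.0382 CPM. The labels do not give sex, and in every comparison below genotype and sex cannot be told apart. STAT6-/- replicate 2 stood apart from its group: its Spearman correlation over all tested genes was 0.953 with WT replicate 1, against 0.946 and 0.94 with the other STAT6-/- libraries. In 28 of the 31 tested members (90.3%) it was the lowest STAT6-/- library, against 33.5% of all tested genes, and values without it are given below for the calls and for members whose call or direction changes when it is left out. Colon epithelium was present at high level in all libraries, with Epcam at a mean of 914 FPKM, and the endothelial genes made up a small part of the RNA.

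Of the 31 tested members, 4 were higher in the STAT6-/- colons when p-values of edgeR's quasi-likelihood fit were adjusted over the whole table (Benjamini-Hochberg, 0.05), where 11.4% of the 15066 tested genes were higher and 22.9% were called in either direction. They were Plvap, Vwf, Flt1 and Nos3, all constitutive genes of blood endothelium. No member was lower (0 at an unadjusted p below 0.05 by edgeR, 1 by DESeq2), where 11.5% of all genes were lower and 19.7% were lower before adjustment. Those 4 are 12.9% of the tested members, a share near the background. The fitted difference was above 0 in 26 and below 0 in 5, with a median log2 fold change of 0.99, beside 0.01 over all tested genes. At an unadjusted p below 0.05, 18 members (58.1%) were higher, against 20.5% of all genes. In 10 members (32.3%) every STAT6-/- library lay above every WT library, as in 22.0% of all genes, and in none did every STAT6-/- library lie below, as in 24.5%; over all genes the groups stayed apart in 46.5%. This is unsorted tissue, and more or fewer cells of a type and more or less RNA per cell cannot be told apart.

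The count of members called depended on which libraries entered. Without STAT6-/- replicate 2 it was 17 of 32 tested (53.1%), where 17.9% of all tested genes were higher. Only this omission added members to the 4, and with any other library left out no further member was called. That library was singled out for its low values in these same members, so the values without it are descriptions. Without STAT6-/- replicate 1 it was 2 and without replicate 3 it was 3 (6.45% and 9.68%, beside 6.81% and 12.5% of all genes), and without WT replicate 1 it was 2 (6.25%, beside 4.25%). Without WT replicate 2 or WT replicate 3 it was 0 (edgeR; 8 and 14 at an unadjusted p below 0.05), and the calls over all genes dropped there from 3449 to 31 and 18. DESeq2 on all 6 libraries called 16 of 33 members higher, Sele among them (48.5%, beside 16.1% of the genes it tested).

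**Figure D1:**
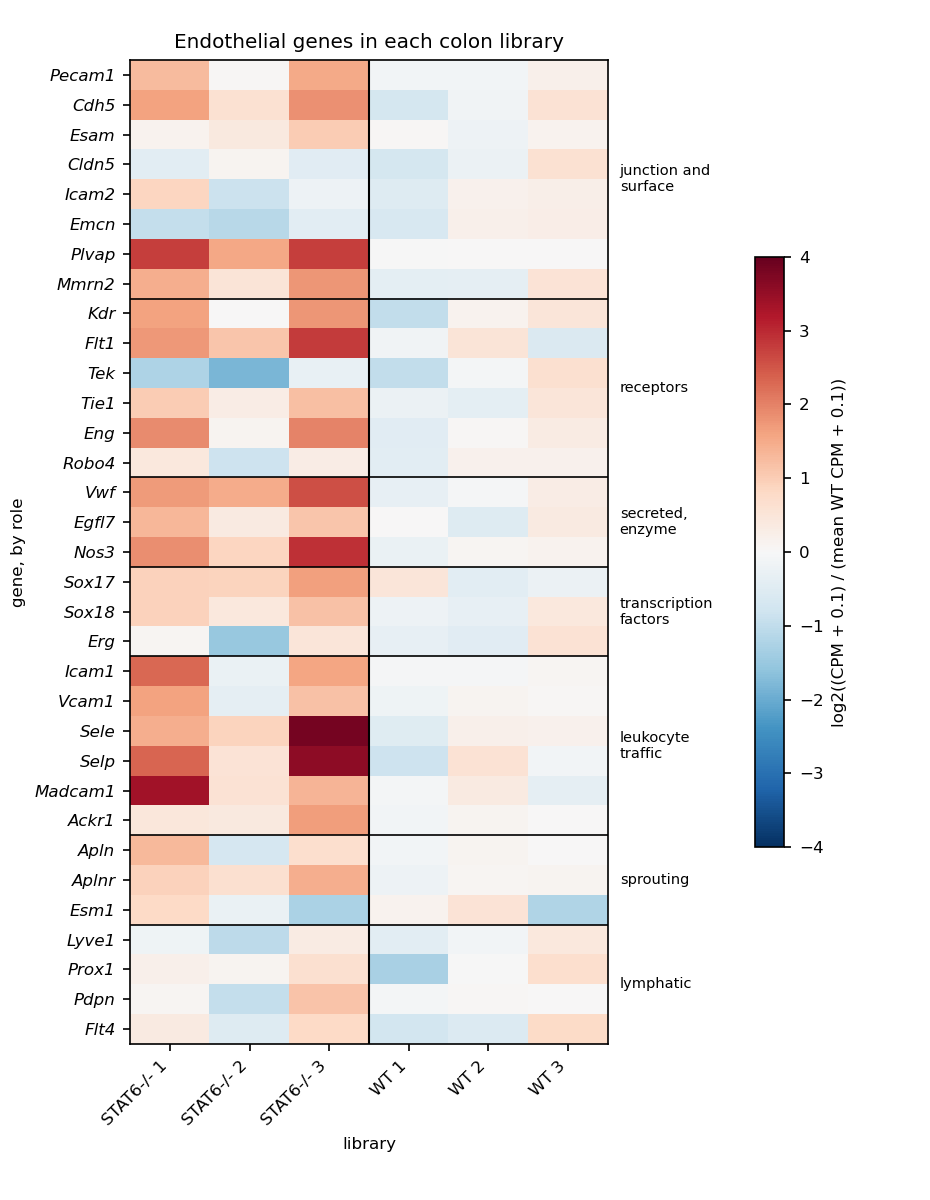
Level of each of the 33 genes (rows, ordered by role) in each of the 6 libraries (columns), as the log2 of its CPM over the mean CPM of the WT libraries, with 0.1 added to both. STAT6-/- replicates 1 and 3 are red over most blood endothelial rows and all adhesion rows, while replicate 2 is paler and resembles the WT columns in many of them.

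Plvap gave the largest change among the junction and surface genes. It encodes the protein of the diaphragms that close endothelial fenestrae and caveolae, which the capillaries of the gut carry in number (chr8:71497753-71511806, mm10). STAT6-/- replicates 1, 2 and 3 held 60.6, 26.2 and 60.5 CPM and the WT libraries 8.69, 8.93 and 8.85. All 3 STAT6-/- values lay above the WT values, which were nearly equal to one another. The rise was 5.56-fold, with a log2 fold change of 2.48 ± 0.33 (edgeR adjusted p = 0.0103), and 2.80 without STAT6-/- replicate 2. Dropping WT replicate 2 gave an adjusted p of 0.0644 and dropping WT replicate 3 one of 0.0714, with log2 fold changes of 2.48 and 2.47. In FPKM, Plvap stood at 24.8 ± 10.5 in STAT6-/- and 4.23 ± 0.212 in WT (SD, n = 3). It was the most abundant constitutive member in STAT6-/-, whereas in WT Cldn5 (7.63), Emcn (5.09), Pecam1 (4.94) and Egfl7 (4.27) had higher mean FPKM.

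The other 7 junction and surface genes did not pass the test with all 6 libraries. Cdh5, VE-cadherin, the cadherin of endothelial junctions (chr8:104101613-104144504), held 18.3, 9.19 and 21.4 CPM in STAT6-/- and 3.61, 5.34 and 8.85 in WT. The groups did not overlap, though STAT6-/- replicate 2 and WT replicate 3 were close, and the log2 fold change was 1.46 ± 0.44 (edgeR adjusted p = 0.0525, and 0.0167 without STAT6-/- replicate 2). With any other library left out, its edgeR adjusted p lay between 0.0866 and 0.167. Pecam1, the adhesion protein CD31 of all endothelium and of platelets and some leukocytes, held 39.6, 16.9 and 47.0 CPM in STAT6-/- and 15.3, 15.1 and 18.8 in WT. Here STAT6-/- replicate 2 lay within the WT range (log2 fold change 1.07 ± 0.36, edgeR adjusted p = 0.0717), and without it the log2 fold change was 1.43 (adjusted p = 0.00451). Mmrn2, an extracellular matrix protein of endothelium, had a log2 fold change of 1.35 ± 0.42 (edgeR adjusted p = 0.0584, and 0.0166 without STAT6-/- replicate 2).

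Not every junction gene lay on that side. Cldn5, claudin-5 of the tight junction, held 8.07, 11.7 and 7.88 CPM in STAT6-/- and 6.68, 9.31 and 16.7 in WT, with a log2 fold change of -0.24 ± 0.37 (edgeR adjusted p = 0.658). Emcn, endomucin, a sialomucin of capillary and venous endothelium, held 3.92, 3.45 and 5.61 CPM against 4.85, 8.75 and 9.25, a log2 fold change of -0.82 ± 0.35 (edgeR adjusted p = 0.128). The groups of both genes overlapped. Esam, an immunoglobulin-family junction protein, and Icam2, a constitutive ligand of the leukocyte integrin LFA-1, had log2 fold changes of 0.57 ± 0.29 and 0.12 ± 0.51. In this role group 1 of 8 tested genes rose (12.5%, beside 11.4% of all tested genes) and 0 fell. The log2 fold changes ran from -0.82 to 2.48 with a median of 0.82.

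Among the 6 receptors, Flt1 alone passed (16.7%, beside 11.4% of all tested genes that were higher). It encodes VEGF receptor 1, which binds VEGF-A tightly and in its soluble form acts as a decoy (chr5:147561604-147726438). The values were 5.27, 3.34 and 10.9 CPM in STAT6-/- and 1.36, 2.17 and 0.964 in WT. The groups did not overlap, and STAT6-/- replicate 3 was highest by far. Flt1 rose 4.33-fold (log2 fold change 2.12 ± 0.54, edgeR adjusted p = 0.0338, and 0.0111 without STAT6-/- replicate 2). Leaving out any other single library gave an edgeR adjusted p between 0.0534 and 0.133, with log2 fold changes from 1.57 to 2.47.

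Eng, endoglin, the co-receptor for TGF-beta and BMP ligands, was the most abundant receptor by length-scaled level (mean 7.67 FPKM; chr2:32646595-32682669). It held 49.9, 14.5 and 52.7 CPM in STAT6-/- and 9.7, 13.7 and 16.6 in WT. The values of STAT6-/- replicates 1 and 3 were alike and high, and replicate 2 lay inside the WT range. The log2 fold change was 1.55 ± 0.48 (edgeR adjusted p = 0.0578), and without STAT6-/- replicate 2 it was 1.97 with an adjusted p of 0.0041. With any other library left out, the edgeR adjusted p lay between 0.12 and 0.162.

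Kdr, VEGF receptor 2, the main signalling receptor for VEGF-A, showed the same arrangement at 17.2, 5.59 and 19.2 CPM against 2.78, 6.14 and 7.77 (log2 fold change 1.33 ± 0.55, edgeR adjusted p = 0.117, and 1.73 with 0.0223 without STAT6-/- replicate 2). With any other library left out, its edgeR adjusted p lay between 0.174 and 0.252. The angiopoietin receptor pair differed in sign. Tie1, the orphan partner, held 16.6, 9.97 and 19.0 CPM against 6.86, 6.14 and 11.5 (log2 fold change 0.89 ± 0.35, edgeR adjusted p = 0.101, and 1.14 with 0.0359 without STAT6-/- replicate 2). Tek, which encodes Tie2, the angiopoietin receptor itself, held 7.05, 4.7 and 13.8 CPM against 8.4, 15.9 and 26.2, a log2 fold change of -0.99 ± 0.52 and the lowest among the tested members (edgeR adjusted p = 0.198). With all 6 libraries neither passed, and the groups overlapped for both. Robo4, a guidance receptor that stabilises vessels, had a log2 fold change of 0.05 ± 0.39.

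Of the 3 genes for secreted products and enzymes, Vwf and Nos3 rose (66.7%, beside 11.4% of all tested genes). Vwf encodes von Willebrand factor, stored in endothelial granules and released to capture platelets (chr6:125552948-125686679). It held 16.9, 14.5 and 30.7 CPM in STAT6-/- and 4.02, 4.96 and 6.3 in WT, with every STAT6-/- library above the highest WT library. This was the member in which STAT6-/- replicate 2 differed least from replicate 1 among the 4 that rose. Vwf rose 4.06-fold (log2 fold change 2.02 ± 0.35, edgeR adjusted p = 0.0149, and 0.00586 without STAT6-/- replicate 2). Dropping WT replicate 2 gave an adjusted p of 0.0773, and dropping WT replicate 3 gave 0.0728, with log2 fold changes of 2.00 and 2.19. Megakaryocytes also make Vwf. The 8 platelet and megakaryocyte markers summed to 11.2 to 19.1 CPM in STAT6-/- and 21.8 to 26.5 in WT, with Pf4 at 4.71, 5.01 and 10 against 10.4, 13.7 and 17.4 CPM. Gp9 had 0 counts in the STAT6-/- libraries, and Gp1ba and Treml1 stayed below 1 CPM in all 6. Of the 4 tested genes 0 rose and Gp6 fell (log2 fold change -2.62, edgeR adjusted p = 0.0265). Gp1bb had a log2 fold change of 1.2 ± 0.37 (edgeR adjusted p = 0.0568), with every STAT6-/- library above WT. The part of these cells in the Vwf difference was not tested.

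Nos3, endothelial nitric oxide synthase, the source of vessel-relaxing nitric oxide (chr5:24364816-24384474), held 6.25, 3.03 and 13.1 CPM in STAT6-/- and 1.36, 1.74 and 1.82 in WT. The groups did not overlap, and the STAT6-/- values spread over a wide range. Nos3 rose 4.54-fold (log2 fold change 2.18 ± 0.55, edgeR adjusted p = 0.0329, and 0.00623 without STAT6-/- replicate 2). Its adjusted p became 0.0609 on leaving out STAT6-/- replicate 1 (log2 fold change 2.33) and of 0.0969, 0.118 and 0.118 without WT replicates 1, 2 and 3 (2.06, 2.22 and 2.26). Without STAT6-/- replicate 3 the log2 fold change fell to 1.55, with an adjusted p of 0.0475. The exons of Nos3 overlap those of Atg9b on the opposite strand by 294 bases, and those of the predicted gene Gm15587, also opposite, by 1040. Whether counting used strand is not given in the sources used here. Atg9b stood at 0.615 ± 0.189 against 0.589 ± 0.525 CPM, below Nos3 in both groups. Egfl7, an endothelial matrix protein whose gene hosts the microRNA miR-126, held 15.0, 7.52 and 12.7 CPM against 5.97, 4.09 and 7.6. It was the most abundant of the 3 by FPKM (mean 6.59), and the difference did not pass (log2 fold change 0.99 ± 0.35, edgeR adjusted p = 0.0804, and 0.0263 without STAT6-/- replicate 2).

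The endothelial transcription factors were low in level and did not pass. Sox18, which acts in vessel and lymphatic development, held 7.65, 5.43 and 9.2 CPM in STAT6-/- and 3.49, 3.16 and 5.39 in WT, with STAT6-/- replicate 2 just above WT replicate 3 (log2 fold change 0.89 ± 0.34, edgeR adjusted p = 0.0943, and 0.0449 without STAT6-/- replicate 2). Sox17, tied to arterial identity, held 1.4, 1.36 and 2.38 CPM against 1.01, 0.496 and 0.567, again without overlap (log2 fold change 1.30 ± 0.45, edgeR adjusted p = 0.0741). Erg, an ETS factor that maintains endothelial identity, held 3.22, 0.992 and 4.28 CPM against 2.37, 2.17 and 4.54, with wide overlap (log2 fold change -0.10 ± 0.58, edgeR adjusted p = 0.915, and 0.33 with 0.573 without STAT6-/- replicate 2).

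**Figure D2:**
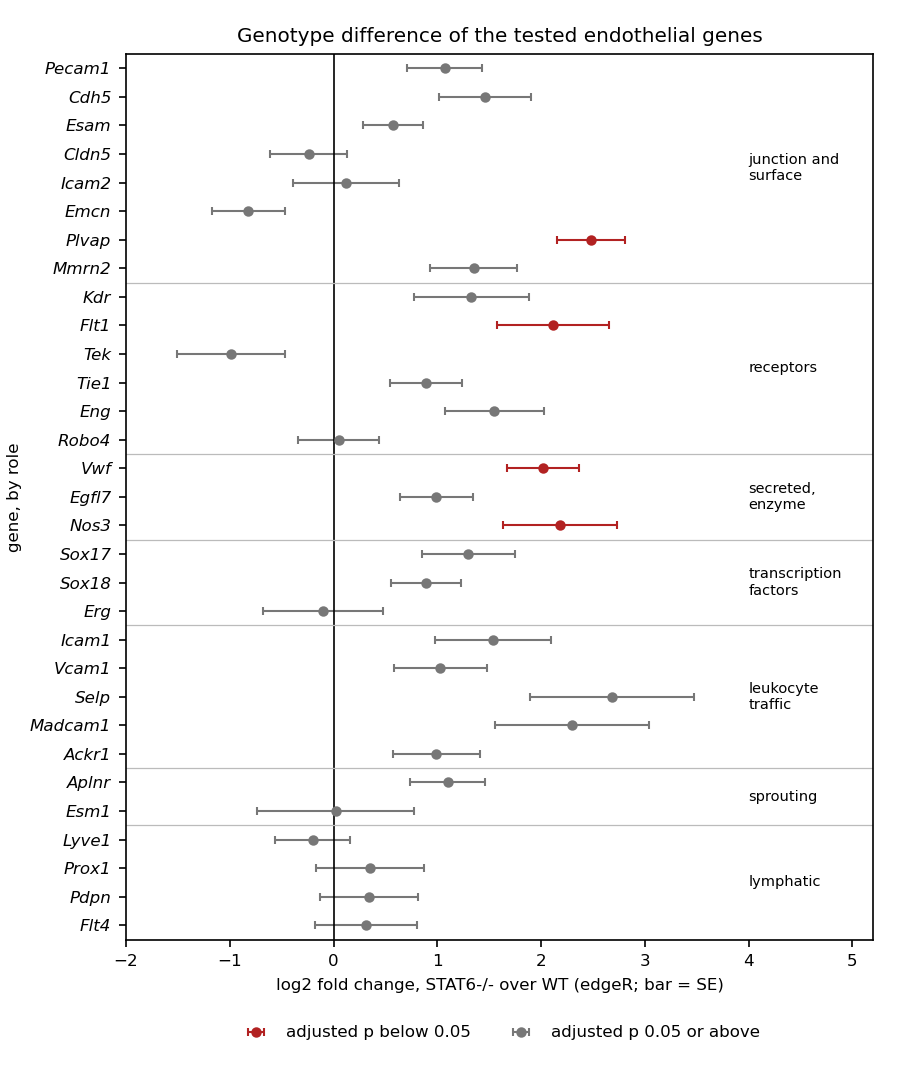
Fitted log2 fold change, STAT6-/- against WT, of the 31 tested genes by role (points, with bars of 1 SE from edgeR). The 4 genes past an adjusted p of 0.05, Plvap, Vwf, Flt1 and Nos3, are red. The adhesion genes Selp and Madcam1 have differences of similar or larger size with wider bars.

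The 20 constitutive genes together, summarised as their geometric mean, stood at 10.4, 5.85 and 13 CPM in STAT6-/- and 4.21, 4.98 and 6.5 in WT. Here STAT6-/- replicates 1 and 3 lay above the WT libraries and replicate 2 lay among them. Of the 20, 4 rose and 0 fell, with a median log2 fold change of 1.03, which was 1.34 without STAT6-/- replicate 2. The adhesion and traffic genes had a median of 1.54 over the 5 tested genes, and 2.01 without STAT6-/- replicate 2, but 0 of 5 passed (4 at an unadjusted p below 0.05 by edgeR). The 4 lymphatic genes had a median of 0.32 with 0 of 4 passing (0 at an unadjusted p below 0.05). No difference between the role groups was tested.

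Among the adhesion genes, Icam1 encodes ICAM-1, the ligand of the leukocyte integrins LFA-1 and Mac-1. Icam1 (chr9:21015940-21028814) held 47.2, 7.99 and 28.7 CPM in STAT6-/- and 9.34, 9.37 and 10.1 in WT. The levels of STAT6-/- replicates 1 and 3 were well above the WT libraries and replicate 2 was below all of them. The log2 fold change was 1.54 ± 0.56 (edgeR adjusted p = 0.0867). It was 2.01 without STAT6-/- replicate 2 (adjusted p = 0.00412) and 0.96 without STAT6-/- replicate 1 (adjusted p = 0.223). By FPKM, Icam1 was the most abundant adhesion gene in STAT6-/- (11.4 ± 8.59, with 20.3 in replicate 1), while in WT it stood at 3.68 ± 0.347 and Vcam1 at 3.96 ± 0.412. Epithelium and leukocytes also express Icam1. Vcam1, which binds the integrin alpha4beta1, held 42.9, 10.9 and 31.4 CPM against 12.2, 15.1 and 14.4, with replicate 2 again lowest of all 6 (log2 fold change 1.03 ± 0.45, edgeR adjusted p = 0.135, and 1.45 with 0.00555 without that library).

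The selectins start leukocyte rolling. Selp, P-selectin, held in endothelial and platelet granules, had 8.68, 2.45 and 20.7 CPM in STAT6-/- and 0.887, 2.54 and 1.53 in WT. The highest value was that of STAT6-/- replicate 3, and replicate 2 fell just under WT replicate 2. The log2 fold change of 2.68 ± 0.79 was the largest among the tested members, at an edgeR adjusted p of 0.0502, and it was 3.18 without STAT6-/- replicate 2 (adjusted p = 0.00814) and 1.80 without STAT6-/- replicate 3. Sele, E-selectin, which is made by activated endothelium, had 6, 3 and 36 counts in STAT6-/- and 0, 1 and 1 in WT. These counts were too low for the test, and STAT6-/- replicate 3 held most of them. The ratio per read was 19.9 (45 against 2 counts, 95% exact interval 5.21 to 169.8, for counting error only), and 6.0 (9 against 2 counts, 1.24 to 57.1) without STAT6-/- replicate 3.

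Madcam1 (chr10:79664559-79668542) encodes the mucosal addressin bound by alpha4beta7. Its values were 27.8, 3.97 and 6.77 CPM in STAT6-/- and 2.48, 3.35 and 1.99 in WT. The groups did not overlap, but STAT6-/- replicate 1 held most of the difference (log2 fold change 2.30 ± 0.74, edgeR adjusted p = 0.062, 1.08 with 0.114 without STAT6-/- replicate 1, and 2.77 with 0.0163 without STAT6-/- replicate 2). Stromal cells of lymphoid follicles also express Madcam1, and the 8 B cell and follicle markers summed to 392 CPM in STAT6-/- replicate 1 and to 55.8 to 85.1 CPM in the other 5 libraries. Cd79a held 86.6 CPM and Cr2 47.1 CPM in that library, against 6.24 to 16.8 and 1.83 to 9.43 elsewhere. Their part in the Madcam1 difference was not tested. Ackr1, the chemokine-binding Duffy receptor of venules, held 4.62, 4.39 and 11 CPM against 3.08, 3.6 and 3.4, without overlap (log2 fold change 0.99 ± 0.42, edgeR adjusted p = 0.124). Its exons share 361 bases with Cadm3 on the same strand.

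Promoter windows are shown for the 4 adhesion genes whose window held a match to the motifs searched. Icam1, Selp, Sele and Madcam1 are known as cytokine-inducible genes of endothelium, and NF-kB is a textbook regulator of such genes. RefSeq windows of GRCm38.p6, 250 bases before to 50 after a start of the gene, were matched for 20 of the 33 genes (25 windows). The Sele window lies inside the listed span of that gene (chr1:164039614-164058487), not at its first base. Windows for Plvap, Vwf, Nos3 and Vcam1 were not matched, and that of Ackr1 held no match to any motif. Both strands were searched for GGNNTTTCC and GGNNTTCCC (NF-kB type), TTCNNNGAA (STAT type) and the STAT6 type with 1 more base in the middle. Each window is 5′ to 3′ on the plus strand, which is the strand of all 4 genes, in lower case with every match in capitals.
Icam1, chr9:21015690-21015989, plus strand: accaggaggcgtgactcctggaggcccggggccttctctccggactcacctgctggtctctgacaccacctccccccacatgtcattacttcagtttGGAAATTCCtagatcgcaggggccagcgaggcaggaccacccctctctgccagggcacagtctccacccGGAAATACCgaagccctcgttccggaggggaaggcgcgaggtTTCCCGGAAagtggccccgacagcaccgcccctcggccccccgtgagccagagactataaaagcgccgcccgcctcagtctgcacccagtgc
Madcam1, chr10:79664309-79664608, plus strand: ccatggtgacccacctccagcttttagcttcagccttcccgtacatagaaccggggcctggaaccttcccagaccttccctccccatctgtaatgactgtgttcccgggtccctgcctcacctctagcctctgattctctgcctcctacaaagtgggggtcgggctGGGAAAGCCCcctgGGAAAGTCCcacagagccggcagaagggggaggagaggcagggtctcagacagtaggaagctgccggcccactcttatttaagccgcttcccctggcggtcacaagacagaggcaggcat
Selp, chr1:164115014-164115313, plus strand: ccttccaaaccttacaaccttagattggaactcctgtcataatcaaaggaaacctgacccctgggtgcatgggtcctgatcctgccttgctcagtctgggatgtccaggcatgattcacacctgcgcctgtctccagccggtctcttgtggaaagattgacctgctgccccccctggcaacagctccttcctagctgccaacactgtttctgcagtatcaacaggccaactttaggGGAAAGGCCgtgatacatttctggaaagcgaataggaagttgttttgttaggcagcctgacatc
Sele, chr1:164047984-164048283, plus strand: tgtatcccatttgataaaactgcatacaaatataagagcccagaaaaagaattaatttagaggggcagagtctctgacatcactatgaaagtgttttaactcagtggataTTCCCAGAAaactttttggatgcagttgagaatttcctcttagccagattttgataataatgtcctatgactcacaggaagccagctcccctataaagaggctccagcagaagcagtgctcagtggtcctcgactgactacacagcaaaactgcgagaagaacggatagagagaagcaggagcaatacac

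In the Icam1 window, GGAAATTCC begins 153 bases and GGAAATACC 84 bases before the start, both the reverse strand of GGNNTTTCC, and TTCCCGGAA of the STAT type begins 42 bases before it. The Madcam1 window has GGGAAAGCC and GGAAAGCCC overlapping by all but 1 base at 84 and 83 bases before the start, and GGAAAGTCC at 70. Selp has GGAAAGGCC at 14 bases before the start, and Sele has the STAT type TTCCCAGAA at 140. Sele matched neither NF-kB-type pattern, but NF-kB-type sequences of other lengths were not searched. GGNNTTTCC occurred in 4 of the 25 member windows and in 5.82% of all 32851 windows, and GGNNTTCCC in 3 and likewise in 5.82%. TTCNNNGAA occurred in 2 of the 25 and in 8.3% of all windows, and the STAT6 type in 1 of the 25 and in 6.95%. The matches were not confined to the adhesion genes. Egfl7 matched GGNNTTTCC, and Kdr and Prox1 matched GGNNTTCCC. The STAT6-type match was in the window of Emcn, a junction and surface gene. The Flt1 window held no match. A match is a description of the letters, and binding was not measured.

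**Figure D3:**
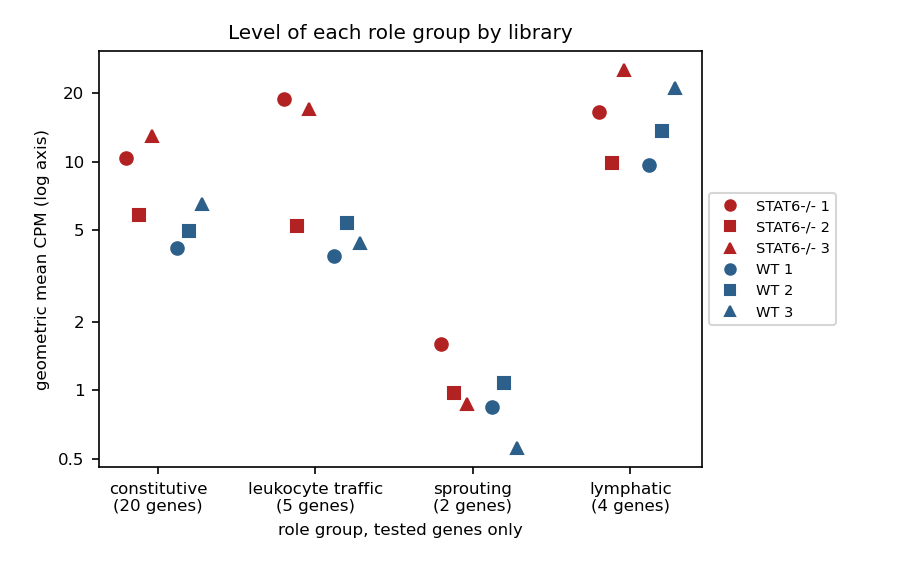
Geometric mean CPM of the tested constitutive, adhesion (leukocyte traffic), sprouting and lymphatic genes in each library (log axis, 0.05 CPM added per gene, points are libraries). STAT6-/- replicates 1 and 3 lie above the WT libraries for the constitutive and adhesion genes, with replicate 2 among the WT points, and the lymphatic groups overlap.

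The sprouting genes had low levels. Aplnr, the apelin receptor of growing veins, held 2.43, 1.98 and 3.6 CPM in STAT6-/- and 1.06, 1.3 and 1.36 in WT, without overlap and with a log2 fold change of 1.10 ± 0.36 (edgeR adjusted p = 0.0663, and 0.0333 without STAT6-/- replicate 2). Its ligand Apln, made by tip cells, had 24, 4 and 13 counts in STAT6-/- and 6, 7 and 7 in WT and was not tested. The ratio per read was 1.82 (95% exact interval 1.04 to 3.27, for counting error only), and 1.13 (0.558 to 2.28) without STAT6-/- replicate 1, which held most of the counts. Esm1, another tip cell product, held 0.98, 0.418 and 0.159 CPM against 0.591, 0.807 and 0.17, a log2 fold change of 0.02 ± 0.76. Of the 2 tested genes 0 passed (1 at an unadjusted p below 0.05 by edgeR).

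The lymphatic genes overlapped between the groups throughout. Lyve1, the hyaluronan receptor of lymphatic capillaries and of some macrophages, had the highest mean FPKM of all 33 genes in WT (17.7 ± 6.05; chr7:110850607-110862953), while in STAT6-/- it stood at 15.9 ± 6.66 FPKM, below Plvap (24.8) and Pdpn (18.1). It held 41.5, 22.8 and 58.8 CPM in STAT6-/- and 35.3, 43.5 and 62.8 in WT. Only STAT6-/- replicate 2 fell outside the WT range, below it, and the log2 fold change was -0.20 ± 0.36 (edgeR adjusted p = 0.702), or 0.11 (0.781) without that library. Prox1, the master transcription factor of lymphatic identity, held 2.71, 2.51 and 3.7 CPM against 0.887, 2.3 and 3.8 (log2 fold change 0.35 ± 0.52). Flt4, VEGF receptor 3, held 22.6, 12.2 and 30.6 CPM against 10.6, 12.1 and 29.9 (log2 fold change 0.31 ± 0.49). Pdpn, podoplanin, which fibroblasts also make, held 27.5, 13.4 and 58.2 CPM against 24.7, 27.2 and 26.6 (log2 fold change 0.34 ± 0.47). The adjusted p of the last 3 lay between 0.619 and 0.657, and SEs of this size leave room for moderate differences in either direction.

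The lymphatic genes, divided by the constitutive genes of the same library (ratio of geometric mean CPM), gave 1.58, 1.69 and 1.93 in STAT6-/- and 2.3, 2.73 and 3.23 in WT. The STAT6-/- ratios lay below the WT ratios without overlap, and STAT6-/- replicate 2 lay between the others of its group. The adhesion genes on the same scale gave 1.8, 0.896 and 1.31 against 0.917, 1.08 and 0.675, with overlap. The 30 other endothelial genes described below gave 0.853, 1.01 and 0.785 in STAT6-/- against 1.54, 1.3 and 1.22 in WT, also lower without overlap. A lower ratio to the constitutive genes was thus not particular to the lymphatic genes. These ratios are descriptions of chosen lists, with no test.

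**Figure D4:**
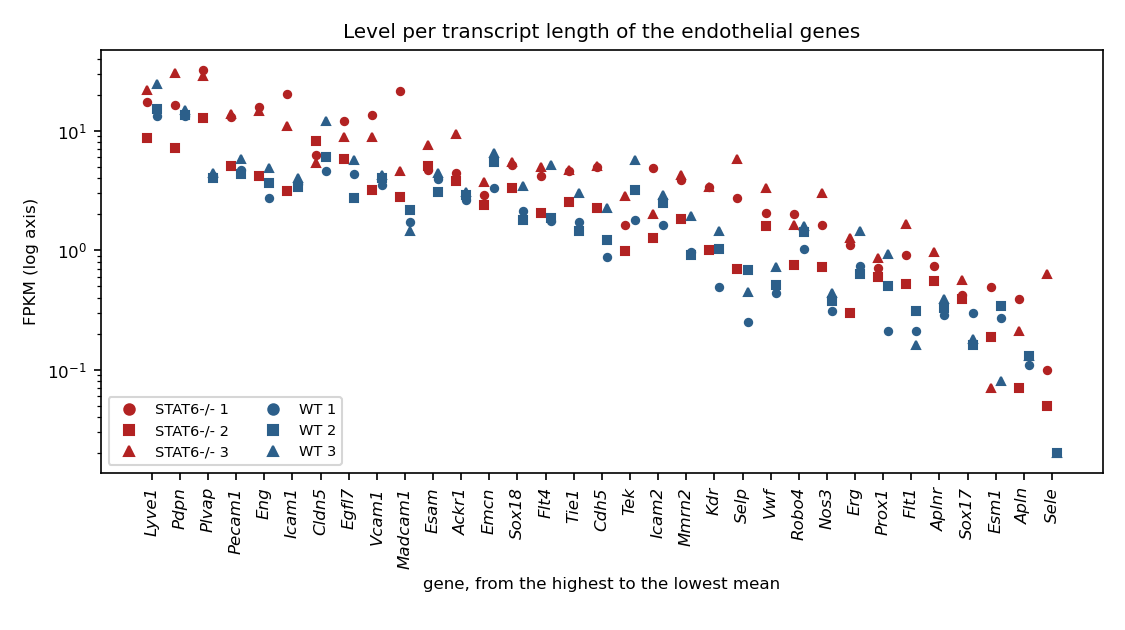
FPKM of each gene in each library (log axis, points are libraries, colour is genotype, genes ordered from the highest to the lowest mean FPKM). Values of 0, found for Sele in WT, are not drawn. Lyve1 and Pdpn are high in both groups, with means of 17.7 and 13.9 FPKM in WT, while Plvap is at 24.8 FPKM in STAT6-/- and 4.23 in WT with no overlap.

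Other endothelial genes, a list of 30 outside the 33, gave 3 higher and 1 lower, with a median log2 fold change of 0.38. Those higher were Rasip1, which acts in endothelial lumen formation (log2 fold change 1.35 ± 0.36, edgeR adjusted p = 0.0372), Adgrf5, an adhesion receptor of endothelium and lung epithelium (1.5 ± 0.41, 0.0419), and Ptprb, the phosphatase VE-PTP at endothelial junctions (1.09 ± 0.30, 0.0419). Cd34, a surface sialomucin shared by endothelium and fibroblasts fell from 109 ± 55.1 to 28.1 ± 11 CPM (-1.96 ± 0.44, edgeR adjusted p = 0.0257). By FPKM, Cd34 was the most abundant gene of that list in WT (42.6), and Efnb2, a ligand of arterial endothelium, was so in STAT6-/- (28.5, with Cd34 at 11.1).

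Of 22 tested ligands, receptors and regulators of vessel growth, 2 rose (9.09%) and 1 fell (4.55%), beside 11.4% and 11.5% of all tested genes. The median log2 fold change was 0.03. Notch4, the Notch receptor of endothelium, rose from 6.05 ± 0.616 to 30.7 ± 9.62 CPM, 5.08-fold (2.34 ± 0.27, edgeR adjusted p = 0.00965). Adm, adrenomedullin, a vasodilator and lymphangiogenic peptide, rose from 6.56 ± 0.418 to 27.8 ± 17.5 CPM (2.08 ± 0.43, edgeR adjusted p = 0.0207). Angpt1, the agonist ligand of Tie2, fell from 5.37 ± 1.17 to 1.93 ± 0.864 CPM (-1.48 ± 0.41, edgeR adjusted p = 0.0426). Hif1a, the oxygen-regulated factor and the most abundant of the list, had a log2 fold change of 0.93 ± 0.46 (edgeR adjusted p = 0.176).

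The leukocyte partners of the adhesion molecules rose in 4 of 12 cases (33.3%, beside 11.4% of all tested genes). Of them 0 fell, and the median log2 fold change was 1.37. Itgb7, the beta chain of alpha4beta7 that binds MAdCAM-1, rose from 5.81 ± 0.603 to 26.0 ± 11.7 CPM (2.16, edgeR adjusted p = 0.0156). Selplg, PSGL-1, the ligand of the selectins, rose from 6.74 ± 0.312 to 28.1 ± 13.9 CPM (2.06, edgeR adjusted p = 0.0192). Itgal, the alpha chain of LFA-1, rose from 4.3 ± 1.2 to 32.7 ± 22.9 CPM (2.93, edgeR adjusted p = 0.0218). Itga4, the alpha4 chain, rose from 16.2 ± 1.13 to 39.1 ± 15.9 CPM (1.27, edgeR adjusted p = 0.0347). Itgb1, which most cell types express and the most abundant of the list, had a log2 fold change of -0.10 ± 0.27. The other chains of the ICAM-1 integrins did not pass: Itgb2, the beta chain shared by LFA-1 and Mac-1, had a log2 fold change of 2.04 ± 0.67 (edgeR adjusted p = 0.0676) and Itgam, the alpha chain of Mac-1, 1.46 ± 0.67 (edgeR adjusted p = 0.148).

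Among 13 tested cytokines and receptors that act on endothelium, 7 rose (53.8%, beside 11.4% of all tested genes) and 0 fell (median log2 fold change 1.37). Tnfrsf1b, TNF receptor 2, rose from 21.8 ± 0.711 to 184 ± 79.0 CPM (3.08, edgeR adjusted p = 0.00965). Tnf itself rose from 1.95 ± 1.33 to 22.4 ± 1.35 CPM (3.51, edgeR adjusted p = 0.00971), with a small spread in STAT6-/- and with WT replicate 1, at 3.49 CPM, above the other WT libraries (1.24 and 1.13). Il4ra and Il13 also rose (2.21 and 5.07, edgeR adjusted p = 0.0134 and 0.0151), and the others that rose were Tnfrsf1a, Ltb and Ltbr. Il13 had 36, 46 and 11 counts in STAT6-/- and 1, 1 and 0 in WT. It had enough reads for the test only through the STAT6-/- libraries, and the size of its fold change is uncertain. Ifngr1, the most abundant, had a log2 fold change of -0.21 (edgeR adjusted p = 0.413). Of 12 NF-kB feedback genes 3 rose and 0 fell (median 0.59): Nfkbiz, Bcl3 and Tnfaip3, at log2 fold changes of 1.55, 1.27 and 0.58 (edgeR adjusted p = 0.0223, 0.0319 and 0.0348). Nfkbia, the most abundant of them, stood at 0.24 (edgeR adjusted p = 0.253). This list was mixed in direction. Every STAT6-/- library lay above every WT library in 6 of the 12, and below in 3, Tnip1, Relb and Birc3. Those 3 had log2 fold changes of -0.54, -0.4 and -0.21 (edgeR adjusted p = 0.0663, 0.0957 and 0.31). Over all tested genes the shares were 22.0% above and 24.5% below. At an unadjusted p below 0.05 by edgeR, 6 of the 12 were higher and 2 lower.

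A list of 10 other lymphatic endothelial genes had a median log2 fold change of 0.09, with 0 higher and 1 lower. Sema3d, a guidance ligand, fell from 13 ± 3.8 to 4.76 ± 2.05 CPM (-1.45 ± 0.41, edgeR adjusted p = 0.0447). Ccl21a, the lymphatic chemokine that guides dendritic cells and the most abundant of the list, stood at 157 ± 44.3 against 218 ± 55.9 CPM (-0.47 ± 0.29, edgeR adjusted p = 0.255).

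**Figure D5:**
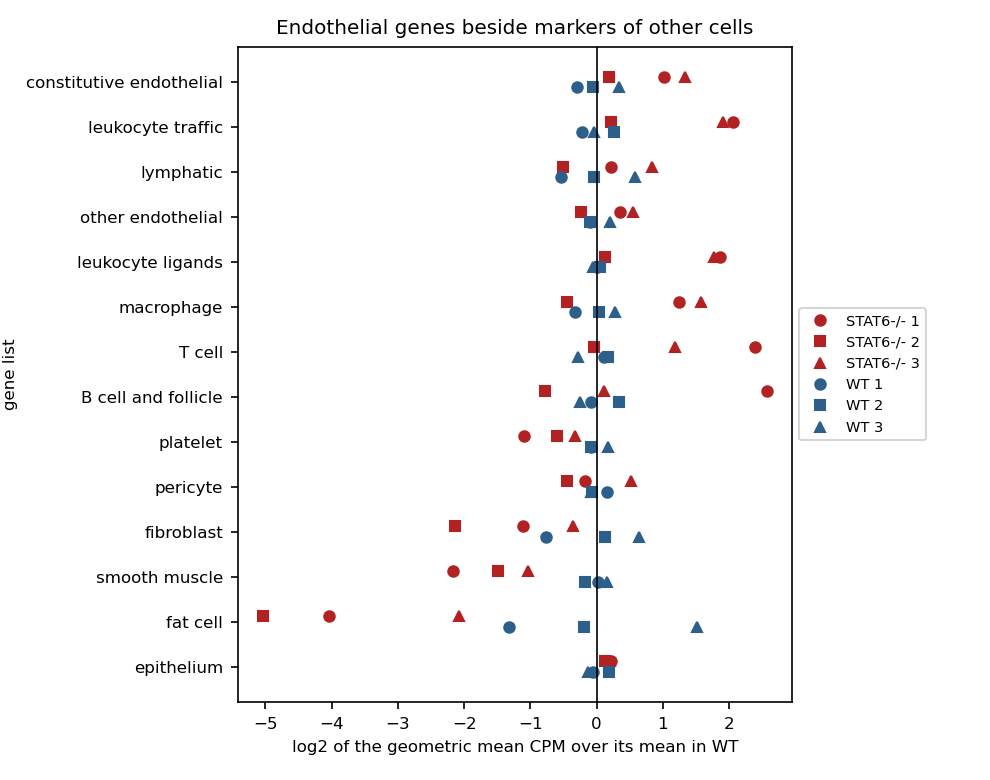
Geometric mean CPM of each gene list in each library, as the log2 of its ratio to the mean of the WT libraries (points are libraries, colour is genotype). The blood endothelial, adhesion and leukocyte lists lie to the right of 0 in STAT6-/- replicates 1 and 3, all 3 STAT6-/- points of the smooth muscle and fat lists lie to the left, and those of the pericyte list straddle 0.

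Several other cell types of the tissue moved with genotype. Their part in the endothelial differences was not tested. Over all tested genes, 11.4% rose and 11.5% fell. Smooth muscle markers were lower, 7 of 8 falling and 0 rising (median log2 fold change -1.33), with summed levels of 2329 to 5269.9 CPM in STAT6-/- and 9095 to 11231 in WT, led by Tagln and Acta2. Fat cell markers fell in 4 of 5 tested cases (Adipoq, Retn, Fabp4 and Cfd; median -4.56), summing to 9.61 to 27.2 against 44.3 to 264 CPM, with Fabp4 and Cfd the highest. Fibroblast markers fell in 3 of 9 (Lum, Dpt and Mfap5; median -0.92), summing to 1088 to 4338 against 2579.8 to 7276 CPM, with Dcn and Col3a1 the highest. Pericyte and vascular smooth muscle markers, whose cells wrap the same vessels, had 0 higher and 1 lower of 8 tested (median -0.06). Within that list Rgs5 fell from 229 ± 65.5 to 94.6 ± 12.8 CPM (edgeR adjusted p = 0.0171), and Mcam stood at 35.2 ± 7.96 against 43.6 ± 3.9. Of the 31 tested endothelial members, 27 did not pass either, and the pericyte and endothelial lists were not compared by a test.

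Leukocyte markers differed between the STAT6-/- libraries. The counts of this paragraph also stand beside 11.4% of all tested genes that rose and 11.5% that fell. In the macrophage list Itgax and Ly6c2, 2 of 12, rose and 0 fell (median 0.82), with sums of 416 to 1468 CPM in STAT6-/- and 448 to 721 in WT and Lyz2 and C1qa the highest. STAT6-/- replicate 2, at 416 CPM, summed below every WT library and was the lowest STAT6-/- library in 12 of the 12. In the T cell list Cd3e and Zap70, 2 of 7 tested, rose (median 1.83), with sums of 18.1 to 107 against 18.2 to 22.8 CPM, the lowest again in STAT6-/- replicate 2, and Cd3g and Lck the highest by FPKM. Of the 8 B cell and follicle genes 0 passed (edgeR, 1 at an unadjusted p below 0.05), with Cxcl13 and Cd79a the highest. Epithelial markers summed to 14469 to 19739.9 CPM in STAT6-/- and 10304 to 13477 in WT (Krt20 and Vil1 rose and Car1 fell, of 10), with Krt8 and Epcam the highest. Enteroendocrine markers summed to 189 to 488 against 287 to 427 CPM (Gcg and Cck rose of 8, 0 fell), with Pyy and Chgb the highest. Of the mesothelial markers 0 of 5 tested passed (edgeR, 1 at an unadjusted p below 0.05). Their sum of 2996 to 5479 against 1982 to 2858 CPM was almost all Krt19, which epithelium also makes, and Msln stood at 6.68 ± 2.72 against 17.2 ± 13.3 CPM. Red cell markers, a sign of blood left in the tissue, summed to 16.3 to 166 against 67.1 to 1336 CPM, with Hba-a1 and Hba-a2 the highest and 0 of 3 tested passing (edgeR, 0 at an unadjusted p below 0.05).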

How the data were processed

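Colon RNA from 6 libraries, 3 STAT6-/- and 3 WT, was used. Per the file headers, each library has a table in which the authors give expected counts, which are RSEM's estimates of reads per RefSeq transcript, not normalized across libraries. The same tables hold the authors' FPKM, scaled for length and for depth, per the file headers. The submitters' processing notes name the aligner Bowtie2 2.2.5, the quantifier RSEM 1.2.12 and mm10. Strand handling is not given in the sources used here.

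Transcripts were joined to genes, and the summed expected counts were rounded. Of 28238 transcripts 27986 were matched in a RefSeq table of GRCm38.p6 and 149 in GENCODE M21, while 103, with 0.167% of the counts, stayed as separate unnamed entries. Transcripts that a library does not list count as 0 in it. A count of 0 allows up to 3 counts, or 0.153 to 0.175 CPM.

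The genotype contrast was fitted in edgeR 4.0.16 under R 4.3.3, with TMM factors, filterByExpr, a robust quasi-likelihood F test (two-sided) over 15066 genes, and Benjamini-Hochberg adjustment at 0.05. The words rose and fell are used for genes past that threshold. SD are over 3 libraries, SE are of the fitted log2 fold change, and list summaries are geometric means of CPM plus 0.05. In simulated data with 200 of 14935 genes changed, the fit recovered 18% of the 2-fold changes and 91% of the 4-fold ones, and 6 of its 115 calls were false. The simulation gave every gene the same dispersion and changed few genes, whereas 22.9% were called in the real contrast. These rates therefore need not hold for the real contrast.

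The members and lists were chosen with earlier results of these data known, so that counts over them are descriptions. Named with full values were members past the threshold, members whose groups did not overlap, and the most abundant of each role group by mean FPKM over the 6 libraries. From each other list the most abundant gene and at most 4 called genes, in order of p, were named, and of cell type lists those with the highest FPKM. The remaining members are named to account for all 33, and other genes behind counts of up to 5, with the platelet genes and Cr2, were named after their values were seen. Genes were matched by symbol, and 2 symbols of the vessel ligand list were not matched. Alternatives were RLE, library size or upper quartile scaling, no filter or 1 CPM in 3 libraries, DESeq2 1.42.0, limma-voom (limma 3.58.1), a fit that was not robust, log2 FPKM with 1 or 0.1 added in limma, a replicate block, and each library left out. Figures were drawn with matplotlib 3.10.9.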

Additional observations from a re-analysis of the deposited data

How the results depend on the processing

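Of the 31 tested members, 23 kept their direction in all 17 alternative settings, 6 of which left out a library. The count of genes called over the whole table was 3449, and 2281 with limma on log2(FPKM + 1). With 1 library left out it ran from 18 to 5190. Of the members 4 were called higher, against 16 by DESeq2, 2 by limma on log2(FPKM + 1), 2 on log2(FPKM + 0.1) and 0 to 17 with 1 library left out. RLE factors, library size alone, the filter at 1 CPM and the fit without robust estimation each called 5, with Selp added. No member was called lower in any setting, with 0 to 2 at an unadjusted p below 0.05. Plvap and Vwf were called in 15 of the 17 settings, and Flt1 and Nos3 in 9 each. The cause of these changes was not tested.

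With 1 library left out, the median log2 fold change ran from 0.90 to 1.34 for constitutive genes, from 1.08 to 2.01 for adhesion genes and from -0.14 to 0.62 for lymphatic genes. The sprouting median of 0.56 was 1.10 with the filter at 1 CPM, where Aplnr alone remained. Genes near 0 changed sign: Esm1 was at -0.00 with upper quartile factors and with log2(FPKM + 0.1), and at -0.07 with limma-voom, while Icam2 and Robo4 were both at -0.01 with limma-voom. With 1 library left out, log2 fold changes ran from -0.79 to 0.48 for Esm1, -0.48 to 0.48 for Icam2, -0.14 to 0.38 for Robo4, -0.48 to 0.33 for Erg, -0.51 to 0.11 for Lyve1, -0.31 to 0.73 for Pdpn, -0.04 to 0.89 for Prox1 and -0.50 to 0.20 for Cldn5.

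Same-numbered libraries of the 2 genotypes correlated in their deviations from the group means at 0.02, 0.04 and 0.13, so the numbers were not taken to pair them. With the replicate number as a block, 4 members were called (Cdh5, Mmrn2, Plvap and Vwf), Flt1 had an adjusted p of 0.0825 and Nos3 0.0503, and Esm1, Icam2 and Robo4 were at -0.07, -0.04 and -0.01. Not every library correlated best with its own number.

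Depth limits Sele, Apln, Esm1 and Sox17 most, as the least abundant members.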

Other observations

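Esam reads were split over a pair of RefSeq transcripts, a feature singled out after its values were seen. The non-coding transcript NR_136939 had 29.35, 26.36 and 41.49 expected counts in STAT6-/- replicates 1, 2 and 3 and 0 in each WT library, while the coding transcript NM_027102 had 141.65, 155.64 and 235.51 against 126, 100 and 141. The division of reads between transcripts of 1 gene is an estimate of RSEM, and no transcript was tested.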
